A study of Nematostella vectensis with 136 samples.

Results

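The starlet sea anemone *Nematostella vectensis* was compared at the same hours of 2 successive days, with the light cycle taken away in between. The libraries are those of the LD arm at T7, T8 and T9, after removal, set against T1, T2 and T3, while the cycle was running, with T7 paired to T1, T8 to T2 and T9 to T3. They were chosen by arm and time point alone and number 24 of the 136 in the series, 12 after and 12 before removal; 24 libraries of the DD arm at the same time points stand beside them. Groups in use are whole adults from the LD arm at T7 to T9 (cycle removed; 24, 28 and 32 h after T1), whole adults from the LD arm at T1 to T3 (0, 4 and 8 h), and whole adults from the DD arm (constant darkness throughout) at both sets of hours. Both arms had spent 1 month in their condition before T1, and each arm and time point has 4 replicates, lettered A to D. The labels do not give the clock time of T1, whether lights were on at T1 to T3, what light the LD animals had after removal, or whether a replicate was 1 animal or several; p-values therefore measure the spread between these samples, which may be technical. Removal is placed here between T6 and T7, from the labelled 24 h of sampling before it; the wording could also leave T7 as the last point with the cycle running, and T7 against T1 would then hold no removal. For that reason T8 and T9 alone were also set against T2 and T3, which called 13.2% of genes in LD and 3.48% for LD minus DD, against 15.4% and 5.18% with all 3 hours. The comparison asks which transcripts depended on the running cycle at these hours, as far as hours of the day are held equal. Age and time spent in the sampling series differ by 24 h between the sides and cannot be told apart from the cycle in LD alone. The DD change or the DD levels are therefore given beside the main results.

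Cnidarians, the group of corals, jellyfish and sea anemones, carry homologues of animal clock genes such as Clock, Cycle and cryptochromes, and *N. vectensis* has no eyes. A light cycle acts on gene expression along 2 routes in animals: light itself induces transcripts, such as those of some cryptochromes and photolyases, and it sets a clock that goes on for a time in darkness. A transcript driven by light should change as soon as the cycle stops, while a clock-driven transcript keeps its hour for a while, so the same hour with and without the cycle is a usual contrast in this field. The identifiers here carry no names and the reference table matched 0 of them, so none of the genes below can be placed in these families, and no role is given.

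Of 24384 genes, 10257 had enough counts to be tested. Total counts per library ranged from 326374 to 721750 (median 506258) in LD at T7 to T9 and from 287119 to 688187 (median 598356) in LD at T1 to T3. In DD they ranged from 207665 to 688622 (median 443925) at T7 to T9 and from 140371 to 640493 (median 503376) at T1 to T3; the lowest, DD T1 replicate D, is left out of means ± SD but stays in the tests. All of T1 to T12 came from sequencing lane 5 per the labels, so lane does not separate the sides. With no gene names, the identity of the animals' cell types could not be checked against markers, and in whole animals fewer cells of a type and less RNA per cell cannot be told apart.

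In LD, 1229 of 10257 genes (12%) rose and 354 (3.45%) fell at T7 to T9 against T1 to T3, 15.4% in all. The rises were the larger changes. The genes that rose had a median log2 change of 1.44, those that fell one of -0.76, and all tested genes one of 0.02. Of the risers, 834 changed by more than 1 and 306 by more than 3 on the log2 scale, and 116 averaged under 1 CPM (counts scaled for library size) at T1 to T3. Of the fallers, 82 changed by more than 1. The median level of the risers was 41.2 CPM at T7 to T9 and 11.8 CPM at T1 to T3; that of the fallers was 30.6 CPM and 52.7 CPM. Calls are adjusted p-values under 0.05 in edgeR's quasi-likelihood test. With library size alone as scaling the split was 1100 risers and 557 fallers.

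In DD, over the same hours, no gene passed (0%). There 632 genes (6.16%) had an unadjusted p under 0.05 in edgeR, DESeq2 called 3 genes and limma-voom 0. The smallest p among rising genes was that of NVE24215, at 49.4 ± 11.0 CPM in DD at T7 to T9 (SD, n = 12) and 34.1 ± 6.23 CPM in DD at T1 to T3 (SD, n = 11), with a log2 change of 0.58 ± 0.15 (SE) that was not called (adjusted p = 0.248). Among falling genes it was that of NVE2825, at 12.8 ± 5.68 CPM in DD at T7 to T9 and 23.3 ± 5.29 CPM in DD at T1 to T3, with a log2 change of -0.89 ± 0.22 (adjusted p = 0.248). Of the 1229 genes that rose in LD, 523 (42.6%) had a positive log2 change in DD, beside 49.7% of all genes, and their median change in DD was -0.07. Of the 354 that fell in LD, 69.5% had a negative change in DD, beside 50.3% of all genes, with a median of -0.14. Across all 10257 genes the LD change and the DD change had a correlation of -0.08, a description over genes, which are not independent replicates.

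The difference between the changes, LD minus DD, passed for 531 genes (5.18%). That count was 65 genes without replicate C, 1.51%, 3.23% and 1.45% of genes without replicates A, B and D, and 122 genes with limma-voom. Genes with all libraries of a time point at 0 can have a very large fitted error in this test and then cannot pass. NVE3619 and NVE158, the largest rises in LD, were not called in it, with differences of 7.31 ± 57437 and 6.19 ± 28513 (SE). In 481 of the 531 (4.69%) LD rose relative to DD, with a median difference of 1.86, and in 50 (0.487%) LD fell relative to DD, with a median of -1.16. Both arms' levels were also compared within each set of hours. At T7 to T9 LD differed from DD in 1478 genes (14.4%), with 12% higher and 2.43% lower in LD, and at T1 to T3, with the cycle running, in 23 genes (0.224%), with 0.185% higher and 0.039% lower in LD.

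The rises were not shared by all 12 LD libraries of T7 to T9. A library's score for programme A, a set of 131 genes that rise and fall together across the whole series, is the mean log2 CPM of those genes, and the midpoint of its range over the series is 5.03. Above it lay 7 of the 12 LD libraries of T7 to T9, against 0 of 12 in LD at T1 to T3 and 0 of 24 in DD at the same hours. The DD scores had a median of 2.32 at each set of hours. They reached 4.13 at T7 to T9 and 4.74 at T1 to T3, below that midpoint. Elsewhere in the series 8 further libraries lay above it, before removal and in constant darkness too. They were LD T6 replicates A and B (5.26 and 7.29), LD T14 replicate A, T16 replicate D and T17 replicates A and C (5.59 to 6.42), DD T5 replicate B (5.48) and DD T12 replicate A (5.12). A high score was therefore not confined to the hours after removal. The 7 were T7 replicates C and D, T8 replicates A and B, and T9 replicates A, C and D. Their scores were 6.98, 6.90, 7.76, 7.23, 6.40, 7.83 and 7.202 in that order. The other 5, T7 replicates A and B, T8 replicates C and D and T9 replicate B, scored 2.31, 2.42, 2.32, 2.39 and 2.35. Scores at T1 to T3 in LD ran from 2.30 to 4.20 with a median of 2.41. So within each hour the LD replicates fell into high and low libraries, and the low ones lay inside the range of the day before. All 131 genes are among the 1229 risers. Programme A was found in all libraries of the series, these included, so the overlap is a description.

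**Figure D1:**
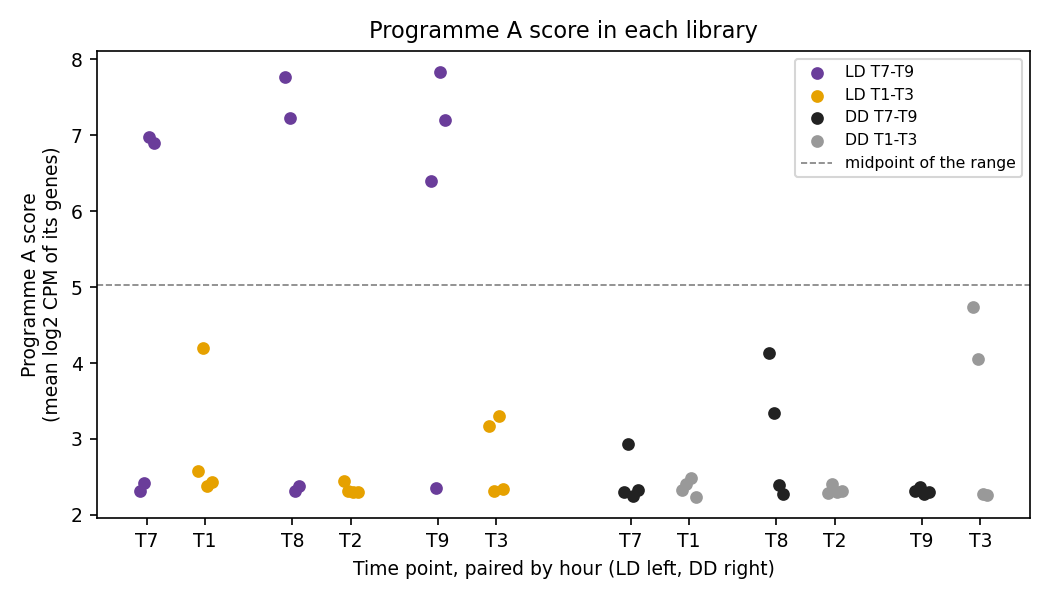
Programme A score (mean log2 CPM of its 131 genes, y axis) of each library at the paired time points (x axis), LD on the left and DD on the right; each point is 1 library, and the dashed line is the midpoint of the range over the series (5.03). In LD, 7 libraries of T7 to T9 lie between 6.40 and 7.83, and the other 5 lie between 2.31 and 2.42, within the range of LD T1 to T3 (2.30 to 4.20).

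The split reached beyond the genes of the score. In each of those 7 libraries between 78.8% (T9 replicate A) and 93.3% (T8 replicate A) of the 1229 risers stood above the highest of the 12 LD libraries of T1 to T3. In each of the other 5 it was between 5.37% (T7 replicate A) and 14.2% (T7 replicate B). In the DD libraries the share was 5.7% to 24.7% at T7 to T9 and 5.21% to 34.4% at T1 to T3, so the low LD libraries lay where most DD libraries did. Over the 1098 risers outside programme A, pairs among the 7 libraries had correlations of 0.64 to 0.85 (median 0.75) in their deviation from the T1 to T3 mean, and pairs among the other 5 a median of 0.10. These genes were called on the same libraries, so the shares are a description of where the calls come from.

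**Figure D2:**
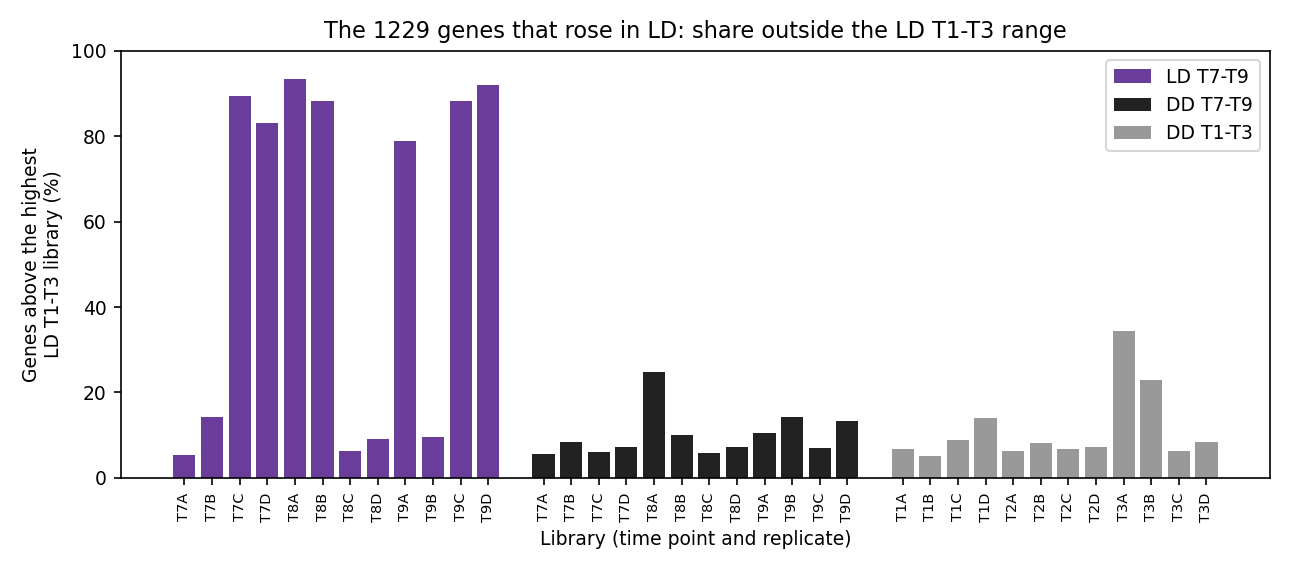
Share of the 1229 genes that rose in LD (y axis, %) that stand above the highest of the 12 LD libraries of T1 to T3, in each other library (x axis, time point and replicate letter); bars are single libraries. The 7 tall bars of LD T7 to T9 reach 78.8% to 93.3%, and the other 5 stay at 5.37% to 14.2%.

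Counted gene by gene, 648 of the risers (52.7%) were above all LD libraries of T1 to T3 in exactly 7 libraries of T7 to T9. None was above them in all 12, 8 were in 10 or more, and 51 in 3 or fewer. A single library rarely carried a rise: the library with the largest excess over the T1 to T3 mean held a median of 23.1% of the summed excess, and over 50% for 3 genes. The fallers were less sharply split. Between 54.2% and 71.8% of the 354 lay below the lowest T1 to T3 library in each of the 7, and between 14.7% and 40.4% in each of the other 5.

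Depth and complexity of the 7 libraries overlapped with those of the other 5. Total counts were 326374 to 721750 in the 7 and 355621 to 606977 in the 5, and genes detected at a fixed depth of 280000 counts numbered 14511 to 15304 in the 7 and 13661 to 14849 in the 5. Programme A genes took 1.54% to 4.08% of all counts in the 7 libraries and 0.0247% to 0.0451% in the 5. A further set of 27 co-varying genes, programme B, was high in T7 replicate B, one of the 5, and in LD T1 replicate D and T2 replicate A. The part of these differences in the result was not tested beyond leaving the libraries out.

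Without every library of the series that lies above that midpoint, called high in programme A from here on, 5 LD libraries remain at T7 to T9. Then 3 genes were called in place of 1583. For LD minus DD edgeR called 0 in place of 531, with 457 genes at an unadjusted p under 0.05. None of the 1229 risers was called. Their median log2 change was -0.15 in place of 1.44, and 37.3% were positive. The libraries left out were picked for high values of 131 of these same risers, so this loss follows from how they were picked and is a description of which libraries carry the rises, not a test. Of the 354 fallers 3 were still called, and 97.7% kept a negative change, with a median of -0.41 in place of -0.76, beside 56.5% of all genes negative. All libraries that remain, of T1 to T3 and of T7 to T9, were among those on which the fallers had been selected. That share is therefore no independent check. Fewer libraries also give wider errors, and the loss of calls alone does not measure the change. With all libraries kept and the score as a covariate, 7 genes were called in LD and 2 for LD minus DD. The score is the mean of 131 of these same risers, so the covariate takes out their rise by construction. That loss is a description as well.

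**Figure D3:**
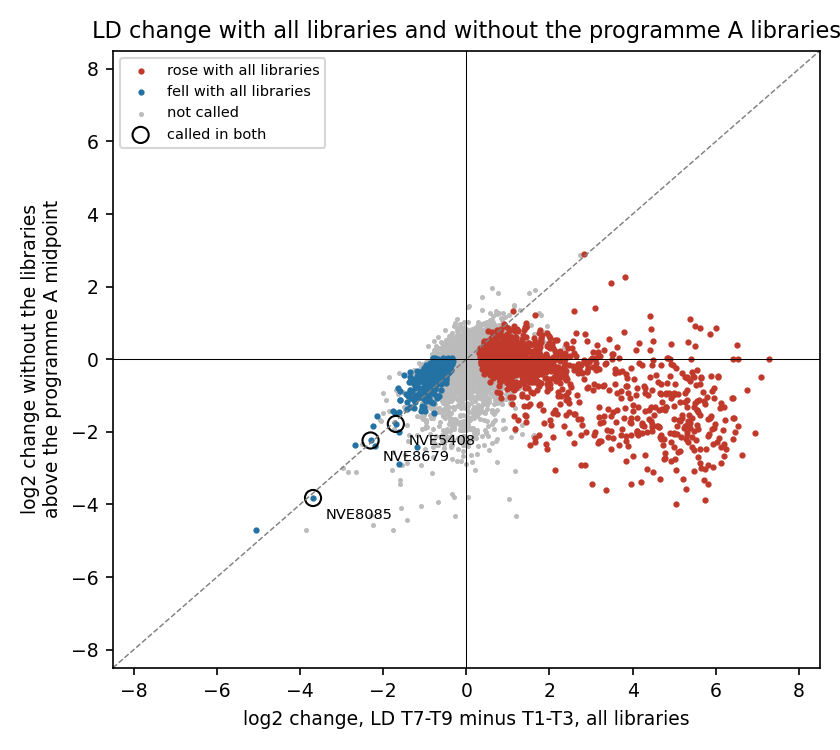
Log2 change of each tested gene in LD, T7 to T9 minus T1 to T3, with all libraries (x axis) and without the libraries high in programme A (y axis); red, blue and grey points are genes that rose, fell or were not called with all libraries, circles mark genes called both ways, and the dashed line is equality. The 1229 risers lie mostly near or under 0 on the y axis (median -0.15), while the 3 circled genes, which fell, lie near the line of equality.

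The genes with the largest rises showed the split plainly. NVE3619 stood at 0 CPM at its lowest, 31.96 CPM at its median and 138.3 CPM at its highest in the 12 LD libraries of T7 to T9, against 0 CPM in all 12 LD libraries of T1 to T3. It was at 0 in the 5 low libraries and between 20.9 and 138.3 CPM in the 7 high ones. Against a floor of 3 counts over the T1 to T3 libraries it was at least 102-fold higher (edgeR, adjusted p = 2.76e-06). In DD it averaged 1.19 ± 2.49 CPM at T7 to T9 (SD, n = 12) and 1.66 ± 3.36 CPM at T1 to T3 (SD, n = 11).

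NVE158 had the same pattern, at 0 CPM at its lowest, 57.0 CPM at its median and 106.8 CPM at its highest in LD at T7 to T9, against 1 count, in T1 replicate B, over all 12 LD libraries of T1 to T3. The same 5 libraries of T7 to T9 were at 0. Before removal it also stood at 24.8 and 86.99 CPM in LD T6 replicates A and B, where NVE3619 stood at 18.2 and 75.3 CPM. The change of NVE158 was past the threshold (edgeR, adjusted p = 4.01e-06). In DD it averaged 1.59 ± 2.95 CPM at T7 to T9 (n = 12) and 1.51 ± 3.91 CPM at T1 to T3 (n = 11). Among the genes called for LD minus DD at a mean log2 CPM of 2 or more, the 2 largest rises were NVE2013 and NVE6315. Some genes not called had a larger fitted difference than NVE6315 (6.64), such as NVE4527 (7.39 ± 5.10, SE). NVE2013 averaged 70.1 ± 78.0 CPM in LD at T7 to T9 and 1.95 ± 4.42 CPM in LD at T1 to T3 (SD, n = 12 each), and 0.75 ± 1.17 CPM in DD at T7 to T9 (n = 12) and 3.89 ± 6.16 CPM in DD at T1 to T3 (n = 11; adjusted p for the difference 0.0329). NVE6315 averaged 24.4 ± 25.0 CPM in LD at T7 to T9 and 0.69 ± 1.71 CPM in LD at T1 to T3 (adjusted p for the difference 0.0392). Its DD means were 0.87 ± 1.87 CPM at T7 to T9 and 2.32 ± 4.01 CPM at T1 to T3. Both were at 0 in 5 of the 12 LD libraries of T7 to T9, and both lost the call on LD minus DD when any 1 of the 4 replicate letters was left out (adjusted p = 0.0912 to 0.250 for NVE2013 and 0.110 to 1.00 for NVE6315). Without the libraries high in programme A, the LD change of NVE158 was -0.48 ± 2572 (SE). LD minus DD was then -0.55 ± 1191 for NVE2013 and -0.023 ± 85.6 for NVE6315. With errors of that size the signs carry no information.

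A few rises were seen in both high and low libraries, though not to the same size. The most uniform were NVE3819 and NVE2343, by the share of hour-matched library pairs in which T7 to T9 was higher. NVE3819 stood at 67.5 CPM at its lowest, 106.9 CPM at its median and 161.2 CPM at its highest in LD at T7 to T9, against 35.8, 52.6 and 69.5 CPM in LD at T1 to T3. Its ranges touch in 1 library of T7 to T9, T8 replicate C at 67.5 CPM. That library, T7 replicate A and T8 replicate D (79.7 and 86.8 CPM) were its lowest, all low in programme A. Its highest, T9 replicate C and T7 replicate D at 161.2 and 145.2 CPM, were high in it. The remaining low ones, T7 and T9 replicates B at 106.4 and 107.4 CPM, lay above T8 replicates A and B, which are high. The log2 change was 1.05 ± 0.20 (SE; edgeR, adjusted p = 1.42e-05), and its DD means were 67.6 ± 18.9 CPM at T7 to T9 and 67.9 ± 23.4 CPM at T1 to T3. LD minus DD was 1.00 ± 0.28 (adjusted p = 0.0196). Without the libraries high in programme A its log2 change was 0.80 ± 0.26, a similar size with a wider error (adjusted p = 0.646).

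NVE2343 stood at 86.5 CPM at its lowest, 133.0 CPM at its median and 363.9 CPM at its highest in LD at T7 to T9, against 18.3, 50.2 and 96.3 CPM in LD at T1 to T3. The groups overlap only between 86.5 and 96.3 CPM. Its log2 change was 1.66 ± 0.37 (edgeR, adjusted p = 0.000327) in LD and 0.64 ± 0.38 in DD (adjusted p = 0.837), and LD minus DD, at 1.01 ± 0.53, was not past the threshold (adjusted p = 0.337). In LD it averaged 151.6 ± 88.4 CPM at T4 to T6, before removal, so T1 to T3 were its low hours on the first day. Without the libraries high in programme A the log2 change was 1.21 ± 0.49 (adjusted p = 0.8292).

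The clearest change was a fall of a small set of genes. In 5 genes, 0.0487% of those tested, all 12 LD libraries of T7 to T9 lay below all 12 of T1 to T3; no gene lay wholly above, and in DD no gene (0%) was separated in either direction. The 5 are NVE8085, NVE8679, NVE5408, NVE14677 and NVE1138. NVE8085 and NVE8679 come from the rule for named genes; the other 3 were chosen after their values were seen, for this separation. The 12 libraries below the earlier range include those high in programme A and the 5 that are not.

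NVE8085 stood at 0 CPM at its lowest, 7.15 CPM at its median and 20.5 CPM at its highest in LD at T7 to T9, against 29.6, 84.1 and 237.5 CPM in LD at T1 to T3. The groups are separated, with T9 replicate A the highest of the later day. The mean was 14.6-fold lower, at 7.28 ± 5.43 CPM in LD at T7 to T9 and 105.9 ± 70.5 CPM in LD at T1 to T3 (SD, n = 12 each), a log2 change of -3.69 ± 0.37 (SE; edgeR, adjusted p = 5.88e-13). In DD it averaged 1.21 ± 2.20 CPM at T7 to T9 (n = 12) and 2.99 ± 2.42 CPM at T1 to T3 (n = 11). So LD lay above DD on both days, by a log2 difference of 2.59 ± 0.66 at T7 to T9 (adjusted p = 0.00191) and 4.93 ± 0.43 at T1 to T3 (adjusted p = 2.43e-16). At these low DD counts, 6 over the 12 libraries of T7 to T9, the DD change was poorly fixed (log2 -1.36 ± 0.78), and LD minus DD, at -2.33 ± 1.28, was not past the threshold (adjusted p = 0.370).

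NVE8679 stood at 9.99 CPM at its lowest, 22.9 CPM at its median and 39.3 CPM at its highest in LD at T7 to T9, against 61.2, 121.3 and 134.7 CPM in LD at T1 to T3. Of the T1 to T3 libraries 11 lay at 96.9 CPM or above and T3 replicate D alone at 61.2 CPM. The mean was 4.99-fold lower, a log2 change of -2.30 ± 0.30 (edgeR, adjusted p = 1.40e-08). In DD it averaged 25.7 ± 16.8 CPM at T7 to T9 and 27.2 ± 16.0 CPM at T1 to T3. The difference LD minus DD was -2.27 ± 0.45 (adjusted p = 0.000700). At T7 to T9 LD and DD did not differ past the threshold (log2 -0.14 ± 0.34, adjusted p = 0.861).

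NVE5408, the most abundant of the 5 in counts, stood at 68.4 CPM at its lowest, 94.2 CPM at its median and 186.4 CPM at its highest in LD at T7 to T9, against 191.6, 360.2 and 484.6 CPM in LD at T1 to T3. The gap between the groups is narrow, between T9 replicate A and T3 replicate D. Its log2 change was -1.69 ± 0.24 (edgeR, adjusted p = 5.18e-08), and LD minus DD was -1.78 ± 0.34 (adjusted p = 0.000470). Its DD means were 91.8 ± 43.5 CPM at T7 to T9 and 83.6 ± 49.3 CPM at T1 to T3.

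NVE14677 stood at 4.88 CPM at its lowest, 30.2 CPM at its median and 63.5 CPM at its highest in LD at T7 to T9, against 74.1, 138.2 and 241.6 CPM in LD at T1 to T3. Its log2 change was -2.19 ± 0.39 (edgeR, adjusted p = 4.27e-06), and LD minus DD was -1.98 ± 0.61 (adjusted p = 0.0376). DD libraries averaged 18.7 ± 17.1 CPM at T7 to T9 and 24.3 ± 25.2 CPM at T1 to T3. NVE1138 stood at 5.99 CPM at its lowest, 13.1 CPM at its median and 20.9 CPM at its highest in LD at T7 to T9, against 21.2, 32.5 and 88.4 CPM in LD at T1 to T3, a separation of less than 1 CPM. Its log2 change was -1.42 ± 0.27 (adjusted p = 1.81e-05), and LD minus DD was -1.46 ± 0.42 (adjusted p = 0.0231). The DD means were 11.6 ± 8.87 CPM at T7 to T9 and 12.2 ± 5.84 CPM at T1 to T3. For these last 3 genes, too, LD and DD did not differ past the threshold at T7 to T9, with adjusted p-values of 0.604 for NVE5408, 0.383 for NVE14677 and 0.732 for NVE1138, while each was higher in LD at T1 to T3.

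**Figure D4:**
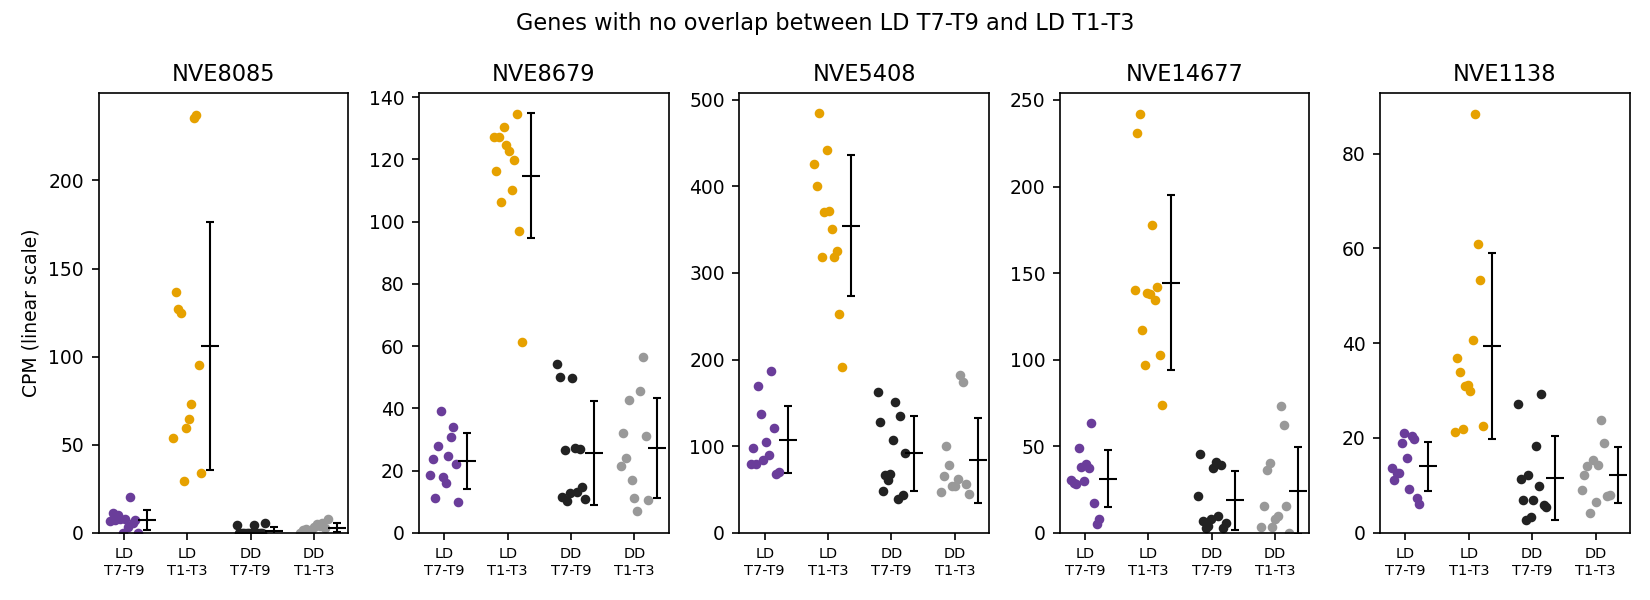
CPM (y axis, linear, a scale for each gene) of the 5 genes in each library of LD T7 to T9, LD T1 to T3, DD T7 to T9 and DD T1 to T3; points are libraries, bars to their right are mean ± SD (n = 12, or 11 for DD T1 to T3). In each panel the LD T7 to T9 points lie below all LD T1 to T3 points and, except for NVE8085, among the DD points.

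Without the libraries high in programme A, NVE8085, NVE8679 and NVE5408 were the 3 genes still called, with log2 changes of -3.82 ± 0.55, -2.24 ± 0.43 and -1.78 ± 0.36 (edgeR, adjusted p = 4.94e-06, 0.00525 and 0.0129 in that order). NVE14677 and NVE1138 had log2 changes of -2.40 ± 0.60 and -1.36 ± 0.39 there, about as large as with all libraries, and were not called (adjusted p = 0.228 and 0.527). In all of these genes the remaining T7 to T9 libraries lie below every T1 to T3 library, as they do with all libraries. A fall there was therefore fixed by that separation, and it is a description, not a test. For NVE8679 and NVE5408 each of 45 other settings kept the call, and for NVE8085 each of 44. Adjusted p-values over these settings reached at most 0.0155 for NVE8679, 0.0428 for NVE5408 and 6.09e-05 for NVE8085. All of these settings use the same libraries or part of them, so they are no independent check.

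The LD levels of these genes at other hours differed. NVE8679 averaged 28.9 ± 10.5 CPM in LD at T4 to T6 (SD, n = 12), still before removal, 17.2 ± 13.2 CPM at T10 to T12 (n = 12) and 23.2 ± 17.0 CPM at T13 to T17 (n = 19). NVE5408 averaged 105.7 ± 20.02 CPM at T4 to T6, 81.5 ± 40.4 CPM at T10 to T12 and 117.3 ± 53.9 CPM at T13 to T17. NVE14677 averaged 28.2 ± 12.9, 15.2 ± 15.1 and 20.6 ± 15.6 CPM over the same periods. In these 3 genes T1 to T3 of the first day were high hours, and at T4 to T6 the means had already come to the level seen at T7 to T9. NVE8085, at 28.2 ± 23.0 CPM at T4 to T6 and 5.58 ± 5.51 CPM at T10 to T12, and NVE1138, at 26.8 ± 13.2 and 10.7 ± 4.86 CPM, had means at T4 to T6 above those of T7 to T9, 7.28 ± 5.43 and 14.03 ± 5.17 CPM. Within T1 to T3 both were highest at T3, at 150.6 ± 102.4 and 56.3 ± 27.1 CPM.

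The hours T10 to T12 against T4 to T6 serve as a second pair of days. NVE8085 and NVE1138 fell there as well, by 2.24 ± 0.43 and 1.14 ± 0.30 on the log2 scale (edgeR, adjusted p = 0.00105 and 0.0225). NVE8679, NVE5408 and NVE14677 were not called there, with log2 changes of -0.78 ± 0.34, -0.43 ± 0.24 and -0.92 ± 0.46 (adjusted p = 0.221, 0.380 and 0.312). The test of the difference between the pairs of hours passed for NVE8679, at -1.52 ± 0.46 (adjusted p = 0.0159), and NVE5408, at -1.26 ± 0.34 (adjusted p = 0.00531). It did not pass for NVE14677 (-1.27 ± 0.61, adjusted p = 0.173), NVE8085 (-1.45 ± 0.63, adjusted p = 0.122) or NVE1138 (-0.28 ± 0.41, adjusted p = 0.740).

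**Figure D5:**
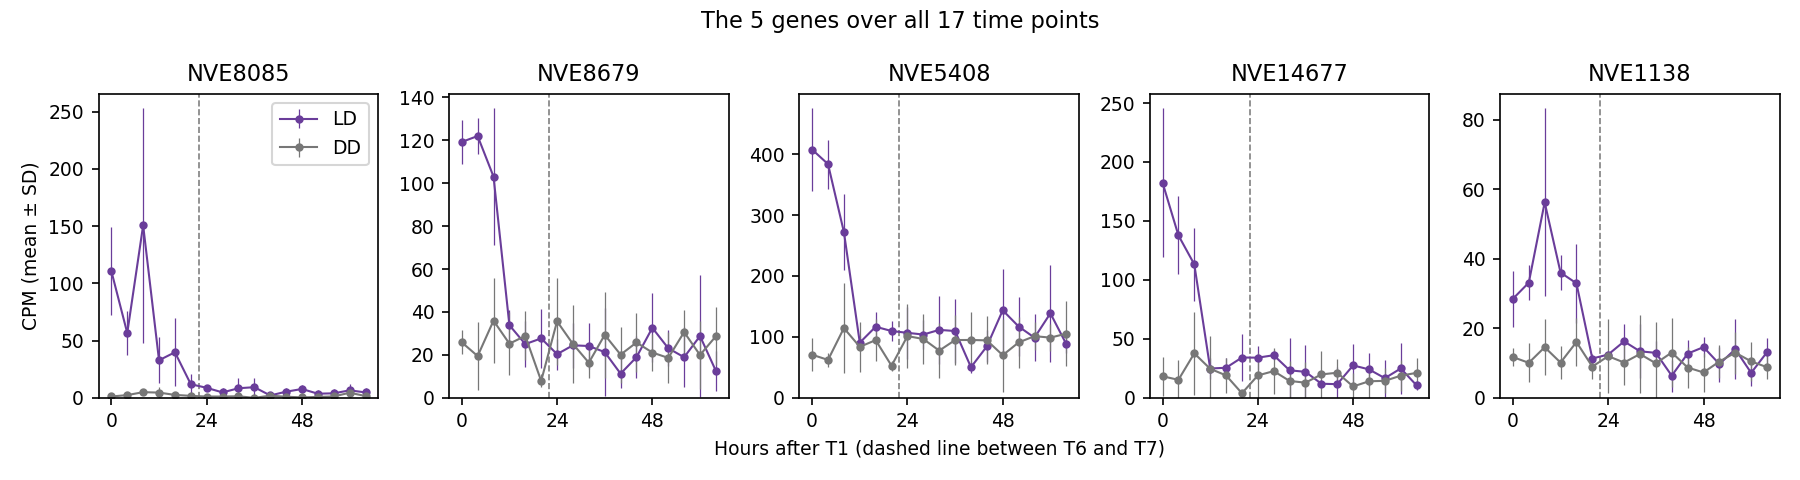
Mean CPM ± SD (y axis, linear) of the 5 genes by hours after T1 (x axis) in LD and DD, n = 4 libraries at most time points and 3 where a shallow library is left out; the dashed line lies between T6 and T7, where removal is placed. NVE8679, NVE5408 and NVE14677 are high in LD at T1 to T3 and near the DD level at T4 to T6, while NVE8085 and NVE1138 peak at T3 (150.6 and 56.3 CPM) and average 28.2 and 26.8 CPM at T4 to T6.

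Hour by hour the calls were fewer. At T7 against T1, 3 genes were called (0.0292%), and all 3 fell: NVE8085, NVE8679 and NVE5408, the last named after its values were seen. NVE8085 averaged 8.74 ± 2.20 CPM at T7 and 110.6 ± 38.2 CPM at T1 (SD, n = 4 each; log2 -3.62 ± 0.60, edgeR, adjusted p = 0.000259). NVE8679 averaged 20.3 ± 7.18 CPM at T7 and 119.2 ± 10.1 CPM at T1 (log2 -2.54 ± 0.51, adjusted p = 0.0118). In DD the log2 changes at this hour were -0.63 ± 1.29 for NVE8085, 0.57 ± 0.55 for NVE8679 and 0.21 ± 0.43 for NVE5408 (SE). Without replicate C of every group NVE8085 was not called (adjusted p = 0.1793) and edgeR called 0 genes at this hour, with 665 at an unadjusted p under 0.05. Without LD T7 replicate B or C the adjusted p of NVE8679 was 0.0544 or 0.270, and 1 gene was called at this hour. The count was 5 without LD T1 replicate A, and 1.47% of the tested genes without LD T7 replicate A, one of the libraries low in programme A.

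At T8 against T2, 629 genes were called (6.13%), of which 600 rose (5.85%) and 29 fell (0.283%). The largest rises were NVE4527 and NVE11188, each at 0 in all 4 LD libraries of T2. NVE4527 averaged 209.8 ± 239.1 CPM at T8 (SD, n = 4) and NVE11188 averaged 204.4 ± 244.2 CPM, at least 180.3-fold and 175.7-fold higher against a floor of 3 counts over the T2 libraries (edgeR, adjusted p = 0.00871 and 0.0138). In DD their log2 changes at this hour were also positive, at 3.67 ± 3.17 and 5.18 ± 4.04 (SE), and were not called. DD T8 replicates A and B stood at 28.5 and 8.08 CPM for NVE4527. For NVE11188 they stood at 22.4 and 12.9 CPM, and replicates C and D were at 0 for each gene. NVE8085 averaged 4.72 ± 3.88 CPM at T8 and 56.6 ± 18.9 CPM at T2 (log2 -3.34 ± 0.68, adjusted p = 0.00212). NVE24933 averaged 0.79 ± 1.57 CPM at T8, from 2 counts in T8 replicate A, and 15.1 ± 8.62 CPM at T2 (adjusted p = 0.0473). In DD the log2 changes of NVE8085 and NVE24933 at this hour were -1.16 ± 1.27 and -0.028 ± 0.89 (SE). Without LD T8 replicate A, 1 gene was called at this hour, and NVE4527, NVE11188 and NVE8085 had adjusted p-values of 0.128, 0.162 and 0.0569. The count was 351 without LD T8 replicate B and 402, 394 and 418 without LD T2 replicates B, C and D. NVE24933 was not called without any single one of the 8 libraries of this hour (adjusted p = 0.0510 to 0.160).

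At T9 against T3, 847 genes were called (8.26%), of which 703 rose (6.85%) and the rest fell (1.4%). With library size alone as scaling 576 rose at this hour, of 796 called. NVE16159 and NVE2614 were at 0 in all 4 LD libraries of T3 and averaged 75.5 ± 77.7 and 71.6 ± 66.9 CPM at T9, at least 64.6-fold and 61.3-fold higher (edgeR, adjusted p = 0.00279 and 0.00564). NVE8085 averaged 8.37 ± 8.67 CPM at T9 and 150.6 ± 102.4 CPM at T3 (log2 -4.11 ± 0.63, adjusted p = 2.61e-05). NVE14527 was at 0 in all 4 libraries of T9 and at 10.1 ± 7.70 CPM at T3, at least 5.91-fold lower (adjusted p = 0.0398). In DD the log2 changes at this hour were -2.80 ± 1.99 for NVE16159 and -3.80 ± 3.48 for NVE2614 (SE). They were -2.27 ± 1.41 for NVE8085 and -0.13 ± 1.51 for NVE14527. Without LD T9 replicate C, 107 genes were called at this hour and NVE2614 had an adjusted p of 0.0525. The count was 409 without LD T9 replicate D and 479 and 475 without LD T3 replicates B and D. NVE14527 lost its call when any of 7 of the 8 libraries was left out (adjusted p = 0.0558 to 0.122). In DD no gene was called at any of the 3 hours in edgeR (0%), where 500, 338 and 765 genes had an unadjusted p under 0.05 at T7, T8 and T9.

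The hours use separate libraries, so a gene chosen at 1 hour can be looked up at another. Of the 600 genes that rose at T8, 593 (98.8%) had a positive change at T7 and 596 (99.3%) at T9, beside 53.3% and 53.5% of all genes. Their median log2 change was 3.27 at T8, where they were chosen, 2.07 at T7 and 2.88 at T9, and 487 were also called at T9. In DD 230 of them (38.3%) had a positive change over T7 to T9, with a median of -0.12. Of the genes that fell at T9, 84% were negative at T7 and 89.6% at T8, beside 46.7% and 47.8% of all genes, and 5 were also called at T8. Each of the 3 hours holds libraries high in programme A, so these shares measure the same split at 3 hours. Across all 10257 genes the changes at the 3 hours had correlations of 0.69 to 0.79, again a description over genes.

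A change that differs among the 3 hours was not found. In that joint test edgeR called 0 genes (0%), with 328 (3.2%) at an unadjusted p under 0.05, and DESeq2 and limma-voom also called 0. The smallest p belonged to NVE2697 and NVE8151 (adjusted p = 0.194 and 0.464). NVE2697 averaged 12.4 ± 4.52 CPM at T7 and 46.6 ± 49.5 CPM at T1, and 156.9 ± 273.7 CPM at T9 and 23.2 ± 7.66 CPM at T3; its T9 mean holds 1 library at 567.4 CPM beside a median of 23.0 CPM. NVE8151 averaged 17.3 ± 9.99 CPM at T7 and 1.32 ± 1.74 CPM at T1, and 2.11 ± 2.83 CPM at T9 and 27.1 ± 22.8 CPM at T3.

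At the later hours of the day few of these genes were called. At T10 to T12 against T4 to T6 in LD, 1.74% of genes were called, 117 (1.14%) up and 61 (0.595%) down. Of the 1229 risers of T7 to T9, 160 (13%) had a positive change there, beside 45.2% of all genes, their median was -0.47, and 2 were called as risers. LD T6 replicates A and B, on the T4 to T6 side, are high in programme A, while none of the 12 libraries of T10 to T12 is. Without these 2 libraries, an alternative added after seeing the data, 41.4% of the risers had a positive change at T10 to T12, beside 48.4% of all genes, their median was -0.08, and 0.741% of genes were called. The difference between the changes, T7 to T9 minus T10 to T12, passed for 1322 genes (12.9%), 1011 upward (9.86%) and 311 downward (3.03%); with RLE factors the split was 1686 and 105. Without LD T6 replicates A and B it passed for 740 genes (544 upward), and without single replicate letters for 6.86% to 9.04% of genes. Among the 1322 genes called with all libraries, at a mean log2 CPM of 2 or more, the largest upward differences were those of NVE3298 and NVE14121. NVE11188 had a larger fitted difference, 10.3 ± 6.21 (SE), and was not called. NVE3298 averaged 125.4 ± 138.2 CPM at T7 to T9, 2.13 ± 3.57 CPM at T1 to T3, 0.52 ± 0.99 CPM at T10 to T12 and 26.3 ± 62.3 CPM at T4 to T6 (SD, n = 12 each; edgeR, adjusted p = 0.0292). NVE14121 averaged 50.7 ± 51.8, 0.96 ± 2.07, 0.55 ± 1.47 and 13.7 ± 30.6 CPM in the same order (adjusted p = 0.00501). The largest downward differences among those called were those of NVE9593 and NVE14435. NVE9593 averaged 7.95 ± 9.34, 11.9 ± 13.0, 14.6 ± 12.8 and 2.38 ± 4.57 CPM in that order (adjusted p = 0.0224), and NVE14435 averaged 11.1 ± 13.2, 24.8 ± 26.9, 22.3 ± 16.9 and 8.34 ± 11.7 CPM (adjusted p = 0.0226). Neither fell past the threshold at T7 to T9 itself. NVE14435 lost the call when any 1 of the 4 replicate letters was left out (adjusted p = 0.0636 to 0.117), NVE9593 and NVE3298 without 3 of the letters and NVE14121 without 1 of them. Without LD T6 replicates A and B, where NVE3298 stood at 34.8 and 214.1 CPM and NVE14121 at 39.7 and 103.7 CPM, neither of these was called, nor was NVE9593. Without the libraries high in programme A edgeR called 0 genes for this difference, with 661 at an unadjusted p under 0.05.

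Other falls rested on fewer libraries. NVE11504, the gene with the largest fall, stood at 0 CPM in 11 of 12 LD libraries of T7 to T9 and at 8.48 CPM in T7 replicate A, against 0, 7.69 and 73.7 CPM at its lowest, median and highest in LD at T1 to T3, where 5 libraries were also at 0. The groups overlap, and its mean was 23.5-fold lower, at 0.71 ± 2.45 CPM at T7 to T9 and 16.6 ± 23.2 CPM at T1 to T3 (edgeR, adjusted p = 0.00211). Without LD T1 replicate C, at 48.04 CPM, it was not called (adjusted p = 0.301). DD libraries averaged 14.2 ± 23.0 CPM at T7 to T9 and 8.98 ± 13.8 CPM at T1 to T3, and LD minus DD was past the threshold (adjusted p = 0.0442), though not without any 1 replicate letter (adjusted p = 0.0968 to 0.552). NVE1806, the other large fall relative to DD, averaged 2.77 ± 3.60 CPM in LD at T7 to T9 and 8.16 ± 6.04 CPM in LD at T1 to T3, against 7.02 ± 6.64 CPM in DD at T7 to T9 and 3.60 ± 3.41 CPM in DD at T1 to T3, with LD minus DD at -2.69 ± 0.72 (adjusted p = 0.0135; 0.104 to 0.334 without replicates A, B or C).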

How the data were processed

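Whole-animal RNA was measured in 136 libraries, 4 for each of 34 groups of arm and time point. The authors deposited raw counts of 24384 genes in whole numbers. Bowtie2 appears, without its version, per the submitters' processing notes. The labels name the Ambion RNAqueous kit for extraction. The counter and its strand setting were not given in the sources used here, so similar or overlapping genes may share reads. Groups came from the titles, and removal was put after T6 because the labels give 24 h of sampling before it and 44 h after.

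Counts were tested with edgeR 4.0.16 (R 4.3.3): filterByExpr over groups (10257 genes kept), TMM factors, 1 quasi-likelihood fit of 34 group means to all 136 libraries (102 residual degrees of freedom), contrasts with hours weighted equally, and Benjamini-Hochberg adjustment over all tested genes at 0.05. CPM uses TMM-scaled library sizes; log2 CPM in scores has a prior count of 2. Replicates differed beyond sampling noise (chi-square per degree of freedom at least 2.93). Programmes were found by average-linkage clustering (1 minus correlation, height 0.5, 20 or more genes) of the 400 most variable genes in libraries over 200000 counts. Named genes are the 2 largest called changes per direction, given a mean log2 CPM of 2 or more, and in LD also the 2 most uniform over 48 hour-matched pairs. The members, lists and alternatives were chosen with earlier results of these data known. The fit was tested on simulated data. Alternatives used DESeq2 1.42.0 and limma 3.58.1 among others.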

Additional observations from a re-analysis of the deposited data

Results flagged for a closer look

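Differences between arms or pairs of hours passed a test of the difference itself in 531 genes for LD minus DD (65 without replicate C) and in 1322 genes for the change at T7 to T9 minus that at T10 to T12 (740 without LD T6 replicates A and B). Among the genes named, LD minus DD was 1.00 for NVE3819, -2.27 for NVE8679, -2.69 for NVE1806, -1.46 for NVE1138, -1.98 for NVE14677 and -1.78 for NVE5408 on the log2 scale. For genes with a group of libraries at 0, mean CPM in LD at T7 to T9 is given in place of a fitted value: 0.706 CPM for NVE11504, 70.1 CPM for NVE2013 and 24.4 CPM for NVE6315. Between the pairs of hours, the fitted difference of NVE3298 was 9.71 and rests on 3 counts at T10 to T12; NVE14121, NVE9593 and NVE14435 stood at 50.7, 7.95 and 11.1 CPM in LD at T7 to T9.

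Single libraries far from the other 3 of their group were flagged in 12 of 108 groups tested. The nominal chance rate of about 1 in 20 does not hold for sparse counts of genes picked from these data and sharing libraries. So 12 of 108 is no measured excess. Some flags, such as the 1 count of NVE158 in LD T1 replicate B, come only from the others being at 0. LD T1 replicate B had a programme A score of 4.20 against at most 2.57 in the others, and it held the 1 count of NVE158 (1.37 CPM against 0). Scores of 2.94 in DD T7 replicate B, 2.40 in DD T2 replicate B and 2.44 in LD T2 replicate A also stood above their groups. LD T9 replicate B had NVE158 at 0 CPM against at least 51.2 in the others. NVE11504 stood at 48.04 CPM in LD T1 replicate C and at 8.48 CPM in LD T7 replicate A, against at most 1.37 and 0 in their groups. NVE8085 was low in LD T1 replicate A (53.8 CPM against at least 124.6), and NVE24933 was at 3.14 CPM in LD T8 replicate A against 0. NVE1138 was high in LD T2 replicate D (40.7 CPM), and NVE14677 in LD T7 replicate D (49.3 CPM).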

How the results depend on the processing

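The number of called genes is given here as a percentage of the 10257 genes of the report, for LD, DD, LD minus DD, T7, T8, T9 and the difference T7-T9 minus T10-T12, which stand at 15.4%, 0%, 5.18%, 0.0292%, 6.13%, 8.26% and 12.9% with the settings of the report. Under other settings 63 values lay more than 1.5 times away from these. Without the libraries high in programme A, LD gave 0.0292% and the others 0%; with the score as covariate LD gave 0.0682%, LD minus DD 0.0195%, T8 0%, T9 0.0585% and T7-T9 minus T10-T12 0.0195%; without libraries high in programme A or B, an alternative added after seeing the data, LD gave 0.039% and LD minus DD 0%. Without LD T6 replicates A and B, also added after seeing the data, T7-T9 minus T10-T12 gave 7.21%. With DESeq2 DD had 0.0292%, T7 0.0487% and T9 4.2%; with limma-voom LD minus DD had 1.19%, T7 and T8 0.0487% each and T9 5.02%, and with quality weights LD minus DD 8.48%, T8 0% and T9 12.8%. The newer edgeR fit gave 1.04% at T7. A filter of 10 counts left 5539 genes to test, so fewer genes could be called at all. As shares of 10257 it gave 7.27% for LD (746 genes), 2.53% for LD minus DD, 1.41% at T8, 2.62% at T9 and 7.08% for T7-T9 minus T10-T12. On the same base, testing all 24384 genes gave 2.9% for LD minus DD (297 genes). Fitting only the libraries compared gave 0.00975% for DD, 2.51% for LD minus DD, 0% at T8 and 4.16% at T9. Leaving out each replicate letter gave 10.7% to 13.6% for LD, 0.634% to 3.23% for LD minus DD, 0% to 0.37% at T7, 0% to 6.01% at T8, 0.039% to 8.96% at T9 and 6.86% to 9.04% for T7-T9 minus T10-T12. Leaving out single libraries gave 11.9% to 18.5% for LD, 0.00975% to 1.47% at T7, 0.00975% to 8.35% at T8 and 1.04% to 11.6% at T9. Some of these settings leave fewer genes or samples, and the cause of the moves was not tested. T8 and T9 without T7 gave 13.2% for LD and 3.48% for LD minus DD. Negative values came for NVE158 in LD (log2 -0.48 without libraries high in A, -0.52 without A or B). They also came for NVE2013 (-0.55, -0.78) and NVE6315 (-0.023, -0.58) in LD minus DD. For T7-T9 minus T10-T12 they came for NVE3298 (-1.85, -1.98, and -1.43 with the covariate). At such low counts they depend on the prior count. The standard errors of NVE158, NVE2013 and NVE6315 were 85.6 or more, so those signs carry no information. The replicate letters did not pair the samples: 2 of 24 same-letter pairs correlated above 0.1, and 6 of 24 libraries correlated best with their own letter. With the replicate block the values were 15.3% for LD, 0% for DD, 5.04% for LD minus DD, 0.0292% at T7, 5.64% at T8, 8.22% at T9 and 12.7% for T7-T9 minus T10-T12. RLE factors put the median change of all genes in LD at 0.09 (log2). Where a library holds 1 count or none of a gene, depth limits what can be seen.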
